A study of Mus musculus with 5 samples.

Results

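The comparison described here sets 1 library of an SSC-enriched germ cell culture against 2 libraries of freshly isolated Thy1- cells, which are 3 of the 5 small-RNA libraries of the study. SSC stands for spermatogonial stem cell, the cell that renews itself and feeds sperm production. All 5 libraries came from testis of C57BL/6 mice. Thy1 is a surface protein used to pull stem-cell-rich fractions out of a testis suspension with magnetic beads (MACS, here with a Thy1.2 antibody). The Thy1- Somatic-enriched group is the stem-cell-depleted fraction of that sort, the Thy1+ SSC-enriched group (2 libraries) is the enriched one, and the culture was derived from Thy1+ cells and carried for about 10 passages. For Thy1- cells the cell type label still reads spermatogonial stem cell, against a title and source that call them somatic-enriched and depleted. The labels give no mouse age, no number of animals and no culture medium or supporting cells, and they do not say that libraries of a group came from separate animals, so the p-values measure only the spread between these libraries. The culture is 1 library with no replicate of its own. Its spread was taken from the fresh libraries, on the assumption that it varies like them.

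MicroRNAs (miRNAs) are RNAs of about the length of a sequencing tag that guide Argonaute proteins to messenger RNAs and lower their output. The guide pairs mainly through its seed, bases 2 to 8 from the 5' end, so miRNAs with 1 seed share many targets. Many miRNA genes lie in clusters transcribed together. In the testis, clusters on the X chromosome, the miR-34 and miR-449 family and the miR-183 cluster are known from germ cells, and miR-202 from the somatic cells of the gonad. The imprinted Dlk1-Dio3 region carries one of the largest mammalian miRNA clusters, expressed from the maternal chromosome.

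Every miRNA name in the files was used. Of 593 names with a count in the series, 579 had a count in the culture or in Thy1- cells, and 470 passed the filter on low counts and were tested. A mature sequence was found in RefSeq (GRCm38.p6) for 410 of the 593 names and for 364 of the 470 tested. The sequences below are those the comparison turns on, printed 5' to 3' with the seed in capitals. The first set holds miRNAs that were higher in the culture, from the miR-183 cluster, the miR-221 and miR-222 pair, the miR-146 pair, the X-linked testis cluster and single loci.
miR-183: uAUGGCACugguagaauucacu
miR-96: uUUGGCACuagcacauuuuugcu
miR-182: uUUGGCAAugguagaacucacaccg
miR-221: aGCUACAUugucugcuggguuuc
miR-222: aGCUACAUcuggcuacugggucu
miR-146a: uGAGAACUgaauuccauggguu
miR-146b: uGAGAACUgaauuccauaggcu
miR-29a: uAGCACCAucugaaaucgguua
miR-206: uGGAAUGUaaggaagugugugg
miR-216a: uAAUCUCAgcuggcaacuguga
miR-217: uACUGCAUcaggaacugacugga
miR-31: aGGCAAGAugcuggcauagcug
miR-335-5p: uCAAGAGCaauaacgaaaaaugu
miR-741: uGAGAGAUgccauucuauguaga
miR-871: uAUUCAGAuuagugccagucaug
miR-221 and miR-222 share the seed GCUACAU, and miR-146a and miR-146b share GAGAACU. Counting positions from 1 at the 5' end, miR-146b departs from miR-146a at G18A and U21C, outside the seed.

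The second set holds miRNAs that were lower in the culture, from the Dlk1-Dio3 region, the red blood cell pair, the miR-200 family, the gonadal miR-202 and an X-linked intron.
miR-127: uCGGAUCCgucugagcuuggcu
miR-434-3p: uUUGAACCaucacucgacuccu
miR-379: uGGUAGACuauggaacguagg
miR-380-5p: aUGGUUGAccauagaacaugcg
miR-541: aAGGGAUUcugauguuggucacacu
miR-144: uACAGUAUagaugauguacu
miR-200a: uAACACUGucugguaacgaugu
miR-429: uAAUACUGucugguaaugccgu
miR-202-5p: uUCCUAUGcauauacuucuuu
miR-672: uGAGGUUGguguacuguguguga
miR-127 (chr12:109592846-109592915, plus strand, GRCm38) and miR-434 (chr12:109594506-109594599, plus strand) lie opposite an exon of Rtl1, a gene of the same imprinted region. miR-541 (chr12:109742409-109742498, plus strand) lies in an intron of the non-coding gene Mirg, and miR-379 (chr12:109709060-109709125, plus strand) in no annotated host. These 10 sequences carry 10 different seeds.

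The third set shows close relatives with the same seed, whose changes are set side by side in the results.
miR-10a: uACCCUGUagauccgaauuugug
miR-10b: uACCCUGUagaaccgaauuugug
miR-27a: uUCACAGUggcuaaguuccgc
miR-27b: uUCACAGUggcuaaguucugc
miR-29c: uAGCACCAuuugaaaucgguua
miR-148a: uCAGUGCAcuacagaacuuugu
miR-152: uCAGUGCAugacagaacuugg
let-7f: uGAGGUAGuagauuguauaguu
let-7a: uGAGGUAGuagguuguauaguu
let-7c: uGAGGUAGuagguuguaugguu
let-7b: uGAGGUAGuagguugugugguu
miR-10b departs from miR-10a at U12A, miR-27b from miR-27a at C19U, and miR-29c from miR-29a at C10U. miR-152 departs from miR-148a at C9U, U10G and U20G. Within let-7, let-7a departs from let-7f at A12G, let-7c from let-7a at A19G, and let-7b from let-7c at A17G.

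The libraries held 2548234 and 4909753 miRNA counts for Thy1- cells and 5110007 for the culture, against 937002 and 947687 for Thy1+ cells. A name at 0 in the culture could therefore be present at up to 0.587 CPM (a name's counts scaled to a common miRNA total per library), the level of 3 counts. The 10 most abundant names of each library held 68.9% of the culture's counts (exact 95% interval 68.9% to 69.0%), against 58.4% and 60.3% in Thy1- cells, with intervals that cover counting error only. Spearman's rank correlation across the tested names, which are not independent replicates, was 0.829 and 0.799 between the culture and each Thy1- library and 0.963 between the 2 Thy1- libraries. The stem cell clusters of miR-302 and of miR-290 to miR-295, known from pluripotent and early germ cells, together held 0.0977% of counts in the culture, within the 0.118% and 0.0719% of Thy1- cells, and 0.782% and 1.82% in Thy1+ cells.

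The culture differed from Thy1- cells over a large share of the miRNAs tested. In edgeR's quasi-likelihood test, 85 of 470 names were higher in the culture (18.1%) and 79 were lower (16.8%) at an adjusted p under 0.05, 34.9% in either direction. The higher names held 53.8% of the culture's counts and 15.6% and 8.91% of counts in the 2 Thy1- libraries. The lower names held 0.759% in the culture and 11.3% and 10.8% in Thy1- cells. The names were called on these same values, so the choice set the direction of both shares and also widened their size. For scale, miR-21 with its minor arm held 11.9% of the culture's counts. The miR-34 and miR-449 family, mostly miR-34c, held 19.7%. In bulk samples fewer cells of a type and less RNA per cell cannot be told apart. All 85 higher names had a CPM in the culture above both Thy1- libraries, as did 25.5% of all tested names. All 79 lower names were below both, as were 61.9% of all tested names. Fold changes below are log2 differences, culture minus Thy1-, with their standard error (SE), after TMM scaling. TMM is edgeR's scaling, which assumes that most names do not change. It gave the culture a factor of 0.472, so a TMM fold is larger in the culture's favour than the ratio of the CPM values printed beside it.

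The split of calls depended on that scaling. Scaled by total counts, the median of all tested names moved by -1.04 on the log2 scale, and 34 names were higher (7.23%) and 123 lower (26.2%). All 79 lower calls and 34 of the 85 higher calls passed under both scalings, and no called name changed sign. The calls also depended on which libraries were in the fit. Without Thy1+ replicate 2 there were 17 higher and 24 lower calls, without Thy1+ replicate 1 there were 43 and 38, without Thy1- replicate 1 there were 33 and 57, and without Thy1- replicate 2 there were 63 and 65. With the culture and the Thy1- libraries alone, edgeR made 0 calls at an adjusted p under 0.05 in either direction, with 77 higher and 94 lower at an unadjusted p under 0.05. In 12 alternatives, with that 3-library fit left aside, 15 higher and 21 lower names were called each time. The 15 are miR-122, miR-146b, miR-155, miR-183, miR-206, miR-216a, miR-216b, miR-217, miR-221, miR-222, miR-23a, miR-29a, miR-29a*, miR-31 and miR-871. Of these, miR-122 and miR-216b had at most 3 counts in each Thy1- library. Of the 21, 13 belong to the Dlk1-Dio3 cluster 3 are the red blood cell miRNAs, and the others are miR-147, miR-200a, miR-429, miR-504 and miR-672. Every other call described here was lost under at least 1 of these alternatives.

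**Figure D1:**
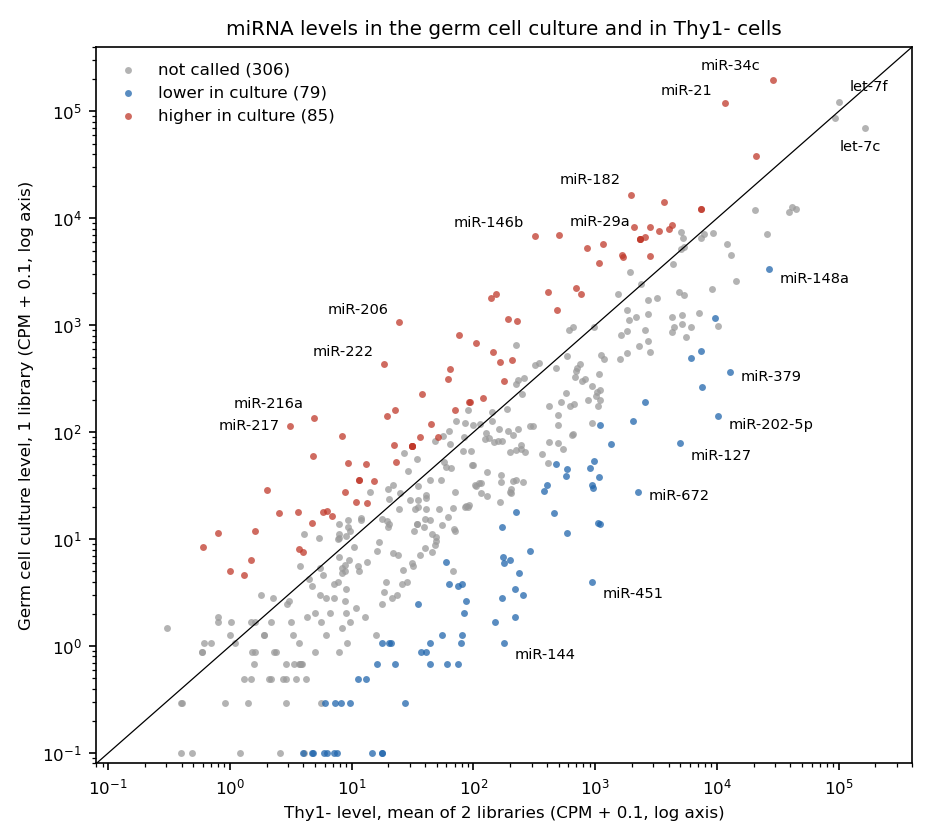
Level of each miRNA name in the culture (vertical axis, CPM, log axis) against the mean of the 2 Thy1- libraries (horizontal axis, CPM, log axis), with a small constant added to both, 1 point per tested name, coloured by call. The 85 higher names lie above the diagonal and the 79 lower names below it.

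miR-34c and miR-21, among the most abundant names in the culture, rose. miR-34c, a miRNA of meiotic and later germ cells, stood at 195531 CPM in the culture and at 48794 and 8498 CPM in Thy1- cells. The culture was above both libraries, which were themselves far apart. The difference was 3.92 (SE 1.04, edgeR adjusted p = 0.0212), and it did not pass under total count scaling (adjusted p = 0.0603). miR-21, found at high levels in dividing cells of many kinds, stood at 118930.0 CPM in the culture and at 11709 and 11526 CPM in Thy1- cells, with 27552 and 32737 CPM in Thy1+ cells. The 2 Thy1- values were nearly equal and the culture lay far above all 4 fresh libraries. The CPM ratio was 10.2, and the log2 difference 4.40 (SE 0.53, edgeR adjusted p = 0.00224).

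The let-7 family, the largest by counts, held 32.5% of the culture's counts and 42.8% and 46.3% of those of Thy1- cells. let-7 is known as a brake on proliferation and as a mark of differentiated cells. Of its 17 tested names, 0 were higher and 1 was lower, the minor arm let-7c-1*, and the median difference was 0.30, against -0.15 over all tested names. let-7f stood at 123547 CPM in the culture and at 122580.0 and 78438 CPM in Thy1- cells. let-7b stood at 12355 CPM in the culture and at 35487 and 54255 CPM in Thy1- cells, so the culture lay below both. Neither difference passed the test (1.37, edgeR adjusted p = 0.066, and -0.85, adjusted p = 0.322). Under total count scaling 3 of the 17 names were lower and 0 higher, with let-7b among the 3 at -1.86 (edgeR adjusted p = 0.034).

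Of the germ cell groups, the miR-183 cluster on chromosome 6 rose as a whole. Here 4 of 4 tested names were higher, against 18.1% over all tested names, with a median of 3.68. miR-182 stood at 16631 CPM in the culture and at 2897 and 1026 CPM in Thy1- cells, a difference of 4.20 (SE 0.64, edgeR adjusted p = 0.0037). miR-183 stood at 5225 CPM against 910.0 and 803, a difference of 3.66 (SE 0.54, edgeR adjusted p = 0.0037). miR-96 stood at 391.6 CPM against 90.3 and 38.3. For these 3 the culture lay above both Thy1- libraries. Its place against Thy1+ cells turned with the scaling. In plain CPM all 3 were below both Thy1+ libraries, where miR-182 reached 34214 and 33096 CPM. In TMM-scaled CPM miR-182 stood at 35209 in the culture, above the 25185 and 20264 of Thy1+ cells, miR-183 was also above both, and miR-96 lay between them. Under total count scaling 3 of the 4 names passed, and the minor arm miR-183* did not.

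The X-linked testis cluster also rose, with 17 of 29 tested names higher, against 18.1% over all tested names, and 0 lower, or 15 of 27 when names with identical counts are taken once. It held 8.74% of the culture's counts, 3.45% and 2.68% in Thy1- cells, and 18.5% and 20.5% in Thy1+ cells. miR-741, its most abundant name in the culture, stood at 14316 CPM against 5339 and 1990.1, a difference of 3.08 (SE 0.61, edgeR adjusted p = 0.00784). miR-880 stood at 8748 CPM against 4286 and 4219, and miR-470 at 7974 CPM against 6330.2 and 1802. The smaller rises of this cluster rested on the scaling: 5 names were higher and 1 lower under total counts, and miR-880 and miR-470 were not among the 5 (adjusted p = 0.186 and 0.313).

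The miR-34 and miR-449 family was uneven. Of 6 tested names, 3 were higher, against 18.1% over all tested names. The 3 were miR-34c, its minor arm miR-34c* and miR-34b-3p. The other arm of miR-34b, miR-34b-5p, did not pass, nor did miR-34a and miR-449a. miR-34b-3p stood at 162 CPM against 39.6 and 5.70 (difference 4.01, SE 1.11, edgeR adjusted p = 0.0249). miR-34a, a target of p53 encoded at another locus, stood at 82.0 CPM between the 269 and 71.5 CPM of the 2 Thy1- libraries. With each of the 4 fresh libraries left out in turn, miR-34b-3p lost its call each time, with an adjusted p of up to 0.0944, and miR-34c lost it in 3 of the 4 cases. The 2 stem cell clusters (miR-302, and miR-290 to miR-295) had 1 of 12 tested names higher, miR-292-5p, against 18.1% over all tested names. Their median was 1.33, against -0.15 over all.

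**Figure D2:**
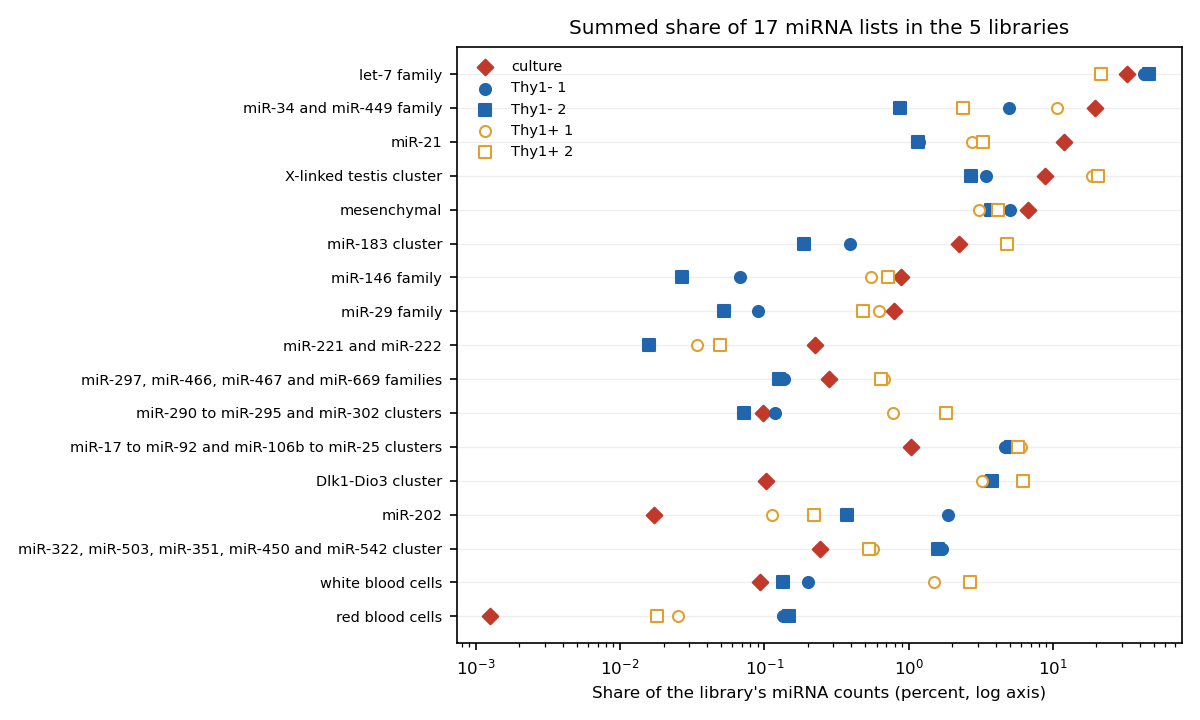
Percent of each library's miRNA counts held by lists of miRNAs, for the culture, Thy1- and Thy1+ libraries, 1 point per library. The Dlk1-Dio3 cluster is at 0.102% in the culture and at 3.21% to 6.16% in the 4 fresh libraries, whereas miR-21 is at 11.9% and 1.16% to 3.29%.

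The largest single rises included miRNAs known from muscle and pancreas. miR-206, a miRNA of skeletal muscle, stood at 1062 CPM in the culture, 33.7 and 14.9 CPM in Thy1- cells and 149 and 362 CPM in Thy1+ cells. The culture was above all 4 fresh libraries, by a CPM ratio of 43.7 over the Thy1- mean and a difference of 6.55 (SE 0.78, edgeR adjusted p = 0.00224). The other 3 tested muscle names (miR-1, miR-133a and miR-208b) did not pass. miR-1 stood at 93.9 CPM against 998 and 295, and under total count scaling miR-1 and miR-208b were lower (edgeR adjusted p = 0.0471 and 0.03). miR-133a, and miR-133b and miR-499, which were not tested, were at 0 in the culture. The muscle list together held 0.116% of the culture's counts and 0.105% and 0.0315% in Thy1- cells. miR-217, known from the pancreas, stood at 115 CPM against 3.53 and 2.44 (difference 6.32, SE 0.65, edgeR adjusted p = 0.00224). Its neighbour miR-216a on chromosome 11 stood at 136 CPM against 6.28 and 3.26. The 2 genes lie in introns of the non-coding gene Gm12082, at chr11:28763728-28763835 and chr11:28757012-28757083 (GRCm38). miR-122 and miR-216b, also on the list for liver and pancreas, were called higher as well, from at most 3 counts in each Thy1- library. miR-216b held 0.000841% of the culture's counts against 3.92e-05% and 6.11e-05% in Thy1- cells. The size of these 2 rises is therefore uncertain. The islet miRNA miR-375 stood at 11.7 CPM, between the 139 and 3.67 CPM of Thy1- cells.

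miR-221 and miR-222, which share a seed and are known to repress the receptor Kit and the cell cycle inhibitor p27, rose together. miR-221 stood at 1803 CPM against 144 and 136, and miR-222 at 435 CPM against 14.1 and 22.4. Both lay above all 4 fresh libraries, with differences of 4.73 (SE 0.62) and 5.57 (SE 0.76) and an edgeR adjusted p of 0.00224 for each. Their genes lie side by side on the X chromosome.

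The miR-146 pair, known as a brake on inflammatory signalling, rose in both members. miR-146b stood at 6885 CPM against 439 and 198, a difference of 5.53 (SE 0.67, edgeR adjusted p = 0.00224). miR-146a stood at 1962 CPM against 238 and 67.8, a difference of 4.81 (SE 0.73, edgeR adjusted p = 0.0037). In TMM-scaled CPM miR-146a stood at 4154 in the culture, above the 2997 and 3791 of Thy1+ cells, whereas in plain CPM the culture was below both. Within the culture miR-146b was the more abundant, and in both Thy1+ libraries miR-146a was, at 4071 and 6192 CPM against 1362 and 998.

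Further rises came from single loci and small families. miR-29a, known to repress collagens and DNA methyltransferases, stood at 7029.5 CPM against 622 and 385 (difference 4.88, SE 0.62, edgeR adjusted p = 0.00224). miR-29c, which shares its seed, stood at 116 CPM against 108 and 91.2 and did not pass (1.27, adjusted p = 0.145). miR-31 stood at 819 CPM against 99.3 and 52.3 (difference 4.52, SE 0.72, edgeR adjusted p = 0.0043). miR-335-5p, from an intron of the imprinted gene Mest, stood at 2064 CPM against 479.9 and 337 (difference 3.40, SE 0.66, edgeR adjusted p = 0.00719). Many names of the miR-297, miR-466, miR-467 and miR-669 families are encoded as repeated copies in an intron of Sfmbt2 on chromosome 2. The list was drawn by name, not by position. These families had 20 of 37 tested names higher, against 18.1% over all tested names, and 0 lower. With identical counts taken once, 16 of 33 were higher. They are close copies that share tags, so counts of single names are uncertain, and under total count scaling 2 of the 37 were higher.

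**Figure D3:**
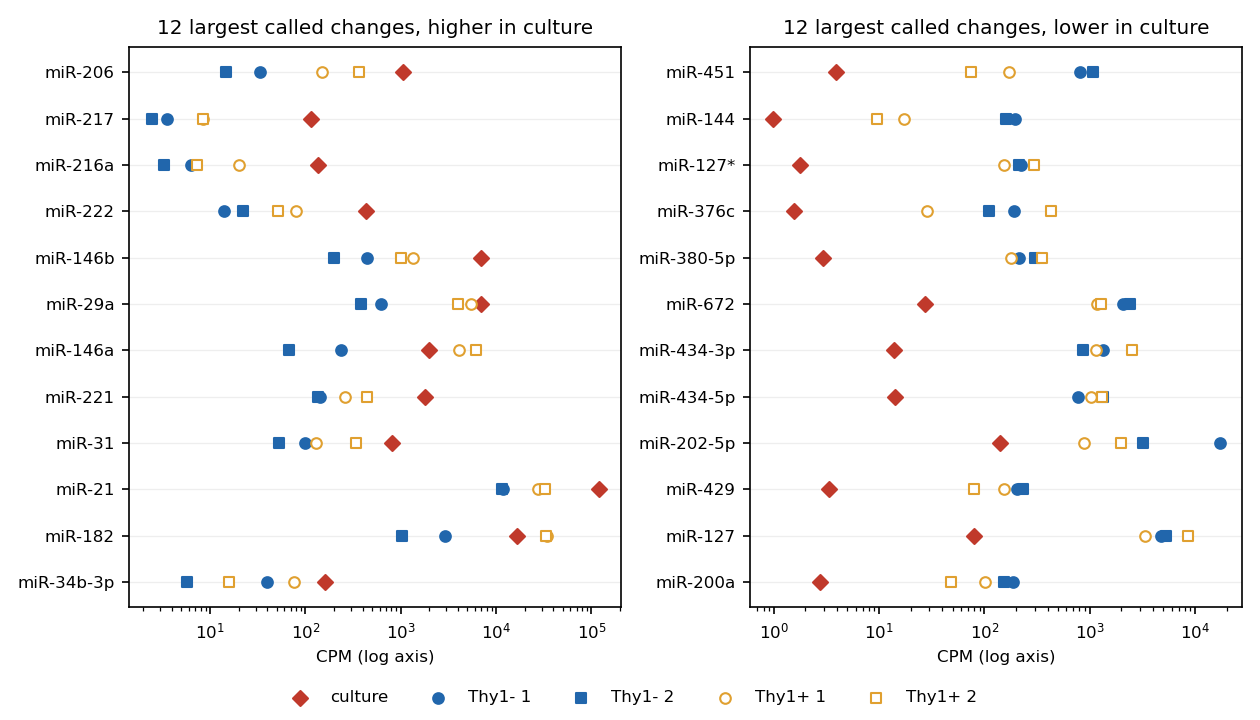
CPM in all 5 libraries (log axis, 1 symbol per library) for the 12 largest called changes in each direction whose higher group reached 100 CPM or more. The culture symbol lies outside the range of the 2 Thy1- symbols in every row, and for miR-146a and miR-182 the Thy1+ symbols lie above it in these plain CPM, an order that turns in TMM-scaled CPM.

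The Dlk1-Dio3 cluster on chromosome 12 had the most falls. Of 59 tested names, 48 were lower and 0 higher, against 16.8% lower over all tested names, and the median difference was -4.20. The cluster held 0.102% of the culture's counts, 3.27% and 3.79% in Thy1- cells and 3.21% and 6.16% in Thy1+ cells, so the culture stood apart from all 4 fresh libraries. All 59 names were below both Thy1- libraries in CPM. In the culture 12 of the 59 were at 0. With those set to the level of 3 counts, 1 of them having no bound, the median was -3.76, and among the 31 names above that level in the culture 29 were lower.

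miR-379, the most abundant name of the cluster, stood at 363 CPM in the culture and at 14796 and 10848 CPM in Thy1- cells. The Thy1- mean was 35.4 times the culture's level, and the difference was -4.08 (SE 0.72, edgeR adjusted p = 0.00471). miR-541 stood at 267 CPM against 4769.9 and 10367 (difference -3.84, SE 0.88, edgeR adjusted p = 0.0122). The Rtl1 antisense miRNAs fell on both arms of their hairpins. miR-127 stood at 79.1 CPM against 4717 and 5264, and its minor arm miR-127* at 1.76 CPM against 223 and 215. miR-434-3p stood at 13.9 CPM against 1343 and 863, and miR-434-5p at 14.1 CPM against 783 and 1338. The differences were -4.95, -5.90, -5.24 and -5.23 in that order, and each of the 4 was called with any 1 fresh library left out.

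**Figure D4:**
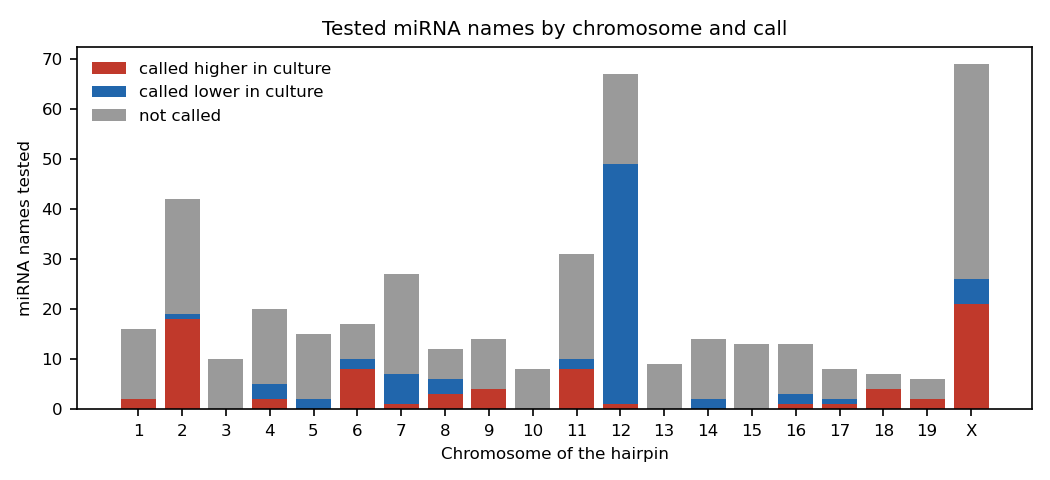
Number of tested names by chromosome of the hairpin, split by call, for the 418 names placed on 1 chromosome. On chromosome 12, 48 of 67 were lower and 1 was higher, and on the X chromosome 21 of 69 were higher and 5 lower.

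By position, 48 of the 67 tested names on chromosome 12 were lower, and of the 8 outside the Dlk1-Dio3 list 0 were lower and 1 was higher. On chromosome 2, 18 of 42 names were higher and 1 was lower. On chromosome 6, 8 of 17 were higher and 2 lower. Over all 418 placed names, 76 were higher and 77 lower.

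miR-202, a miRNA of the somatic gonad, fell on both arms. miR-202-5p stood at 141 CPM in the culture and at 17164 and 3239 CPM in Thy1- cells, with 880.4 and 1970.0 CPM in Thy1+ cells. The 2 Thy1- libraries differed widely, and both lay far above the culture. The difference was -5.03 (SE 1.12, edgeR adjusted p = 0.0112), and without 1 fresh library the adjusted p reached up to 0.083. miR-202-3p stood at 31.7 CPM against 1419 and 473.

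The red blood cell miRNAs fell in all 3 members. miR-451, needed for red cell maturation, stood at 3.91 CPM against 813 and 1073, a difference of -6.88 (SE 1.13, edgeR adjusted p = 0.0043). miR-144, processed from the same transcript, stood at 0.978 CPM against 195 and 159.7, and miR-486 at 7.63 CPM against 335 and 243. Together they held 0.00125% of the culture's counts and 0.134% and 0.148% of those of Thy1- cells.

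The other cell type lists moved less evenly. Of the white blood cell list, 1 of 6 tested names was higher, near the 18.1% over all tested names. That name, miR-155, stood at 92.8 CPM against 9.81 and 6.72. The list's most abundant name, miR-142-3p, stood at 818 CPM against 1953 and 1294. miR-150 and miR-223, 2 other defining names, had 3 and 4 counts in the culture. The list held 0.0937% of the culture's counts against 0.202% and 0.135%. The endothelial miR-126 arms had 0 of 2 called in edgeR and held 0.0562% against 0.0964% and 0.168%. The neural list had 0 of 5 called and held 0.0164% against 0.0536% and 0.0351%, with miR-124* at 0. The mesenchymal list had 3 of 11 higher, or 2 of 10 with identical counts taken once, the latter near the 18.1% over all tested names. The list held 6.74% of the culture's counts against 5.03% and 3.69% in Thy1- cells. miR-143, its most abundant name, stood at 37950.2 CPM against 29955 and 11618 (difference 1.98, SE 0.59, edgeR adjusted p = 0.0322), while miR-145, from the same transcript, stood at 234 CPM against 829.6 and 323. None of the 3 passed under total count scaling. The part of these cell types in the other differences was not tested.

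**Figure D5:**
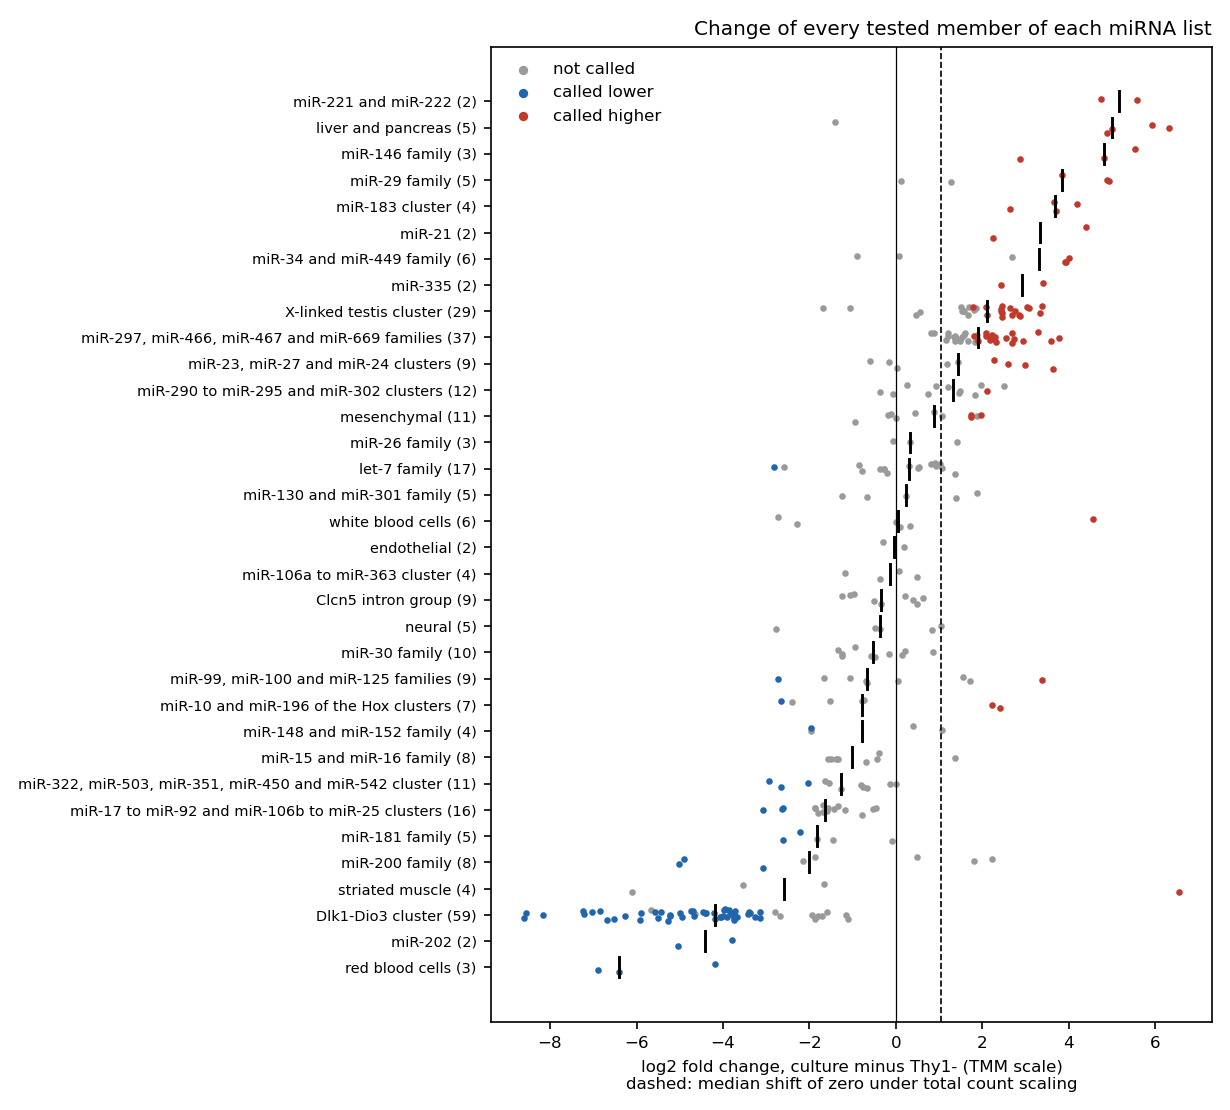
Log2 difference (culture minus Thy1-, TMM scale) of every tested name of each list, 1 point per name, coloured by call, with a bar at the list's median and the number tested in brackets. The dashed line, right of the solid one, marks where no difference under total count scaling would fall, given the median shift of -1.04. The Dlk1-Dio3 names lie between -8.60 and -1.10.

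Falls outside the Dlk1-Dio3 region were spread over several families. In the miR-200 family, which keeps epithelial cells epithelial, 3 of 8 tested names were lower, against 16.8% over all tested names. The 3 were miR-200a, miR-200b and miR-429, which lie together on chromosome 4. miR-429 stood at 3.33 CPM against 206 and 235 (difference -5.01, SE 0.98, edgeR adjusted p = 0.00733). miR-200c, from the other locus on chromosome 6, stood at 64.4 CPM against 14.9 and 38.7, above both, and did not pass (2.23, adjusted p = 0.0647). miR-672, from an intron of the X-linked gene Nexmif, stood at 27.6 CPM against 2095 and 2439 (difference -5.33, SE 0.81, edgeR adjusted p = 0.0037).

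In the proliferation-linked miR-17 to miR-92 and miR-106b to miR-25 clusters, 3 of 16 tested names were lower (miR-106b, miR-17* and miR-18a), 0 were higher, and all 16 were below both Thy1- libraries in CPM. That share of calls is near the 16.8% lower over all tested names, of which 61.9% were below both. Under total count scaling 9 of the 16 were lower, against 26.2% of all. miR-106b stood at 573 CPM against 8762 and 6035 (difference -2.62, SE 0.65, edgeR adjusted p = 0.0158). In the X-linked group of miR-322, miR-503, miR-351, miR-450 and miR-542, 3 of 11 were lower, against 16.8% of all tested names. Under total count scaling 6 of the 11 were lower, against 26.2% of all. miR-503 stood at 127 CPM against 2533 and 1582 (difference -2.95, SE 0.71, edgeR adjusted p = 0.0149). Of the miR-181 family 2 of 5 were lower, against 16.8% of all tested names. Among them was miR-181d, from an intron of the germ cell gene Nanos3, at 499 CPM against 4712 and 7595. The miR-30 family (10 tested), the miR-15 and miR-16 family (8), the Clcn5 intron group (9), the miR-130 and miR-301 family (5), the miR-26 family (3) and the miR-106a to miR-363 cluster (4) had 0 calls in edgeR after TMM scaling. Under total count scaling 4 miR-30 names, 3 of the miR-15 and miR-16 family and 1 of the miR-130 and miR-301 family were lower. The Clcn5 intron group, the miR-26 family and the miR-106a to miR-363 cluster still had 0 calls. The miR-99, miR-100 and miR-125 families had 1 higher (miR-125b-3p) and 1 lower (miR-99b*) of 9 tested, against 18.1% and 16.8% of all tested names.

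Relatives with the same seed did not always move alike, although, among the 364 tested names with a RefSeq sequence (57 of the 85 higher and 70 of the 79 lower), no seed held both a higher and a lower call. miR-10a, from the Hoxb cluster, stood at 6719 CPM against 2026 and 3091 and was higher (2.40, SE 0.64, edgeR adjusted p = 0.0212). miR-10b, from the Hoxd cluster, stood at 11544 CPM against 36058 and 42409.5, below both, and did not pass (-0.74, adjusted p = 0.373). miR-27a stood at 1387 CPM against 642 and 337 and was higher (2.59, edgeR adjusted p = 0.0122). miR-27b stood at 2059 CPM against 5864 and 3819.7 and did not pass (-0.16, adjusted p = 0.864). miR-148a stood at 3386 CPM against 24284 and 29614 and was lower (-1.97, edgeR adjusted p = 0.0401), and miR-152 at 5152 CPM against 4489 and 5554 (1.06, adjusted p = 0.18). The lists these pairs belong to were mixed: 4 of 9 names of the miR-23, miR-27 and miR-24 clusters were higher, 2 of 7 Hox cluster names were higher and 1 lower, and 1 of 4 names of the miR-148 and miR-152 family was lower. Over all tested names 18.1% were higher and 16.8% lower. The difference between the members of each pair was not tested. Under total count scaling miR-10a and miR-27a did not pass (adjusted p = 0.0827 and 0.0973).

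The Thy1+ libraries give the place of the culture among fresh cells, by CPM after TMM scaling. Of the 85 higher names, 71 were above all 4 fresh libraries, as were 134 of all 470. For 54 of the 85 both Thy1+ libraries lay between Thy1- and the culture, as for 63 of all 470. Of the 79 lower names, 78 were below all 4 fresh libraries, as were 147 of all 470. For 33 of the 79 both Thy1+ libraries lay between, as for 48 of all 470. The called names were chosen for lying away from Thy1- cells, and the Thy1+ libraries also entered the fit that gave these calls. Part of this order was therefore set by the choice of names.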

How the data were processed

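Small RNAs of 5 libraries were sequenced on Illumina small-RNA protocols, per the labels' protocols. The authors deposited, per library, a raw count for each distinct tag placed on mature mouse miRNAs of miRBase 12.0, with up to 2 mismatches; no source used here names the aligner, the adapter removal or the build. DESeq is named in the submitters' processing notes, with no role. Counts were summed per name over each tag's best placements, tied names sharing a tag equally, and rounded. Of each library's counts, 90.9% to 94.9% lay on exact tags. edgeR 4.0.16 (R 4.3.3; TMM, filterByExpr by group, quasi-likelihood test, two-sided, Benjamini-Hochberg over 470 names) was fitted to all 5 libraries with 2 residual degrees of freedom and tested on simulated data. The labels name no molecular identifiers. RefSeq and GENCODE (GRCm38) gave sequences and positions. Members, lists and tests were chosen with earlier results of these data known.

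The naming rule took the 10 most abundant miRNAs in the culture and in Thy1- cells, up to 12 largest called changes per direction where the higher group reached 100 CPM and the culture lay outside the Thy1- range, up to 3 most abundant tested members of each list, and all members of lists of 4 or fewer. The text describes only part of the names so taken, and miR-99b, miR-103 and miR-376c are among those left out. Other names, given to complete a count, a pair or a list of stable calls, were chosen after their values were seen. Alternatives covered scaling, the low-count filter, DESeq2 1.42.0, limma-voom (limma 3.58.1), the libraries in the fit, a replicate block and the tags counted. Whether the replicate numbers of the fresh groups pair the libraries is not known. The correlation of their deviations was -0.0863, so no large shared replicate effect was seen, but this value alone cannot exclude a pairing.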

Additional observations from a re-analysis of the deposited data

How the results depend on the processing

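Total count scaling gave 34 higher and 123 lower calls. The fit of the culture and Thy1- libraries alone gave 0 higher and 0 lower in edgeR at an adjusted p under 0.05 (77 and 94 at an unadjusted p under 0.05), with 2 fewer libraries to set the spread. Leaving out 1 fresh library gave 17 to 63 higher and 24 to 65 lower calls, with fewer libraries to set the spread. The other alternatives gave 79 to 100 higher and 71 to 83 lower: RLE scaling, no filter, DESeq2, limma-voom, exact tags and tags on 1 name. The replicate block gave 90 higher and 75 lower calls, but it is not known whether the replicate numbers pair the libraries. No named miRNA with a call changed direction. Of the 111 names taken by the naming rule, 17 lost and 13 gained a call under total count scaling, and 32 lost it without Thy1+ replicate 2. The shares of lists moved by over 1.5 times in 1 case of 102, the mesenchymal list in Thy1- replicate 2 with tags on 1 name. Depth limits names under 3 counts, and the culture's own spread was not measured.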

Other observations

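Outside the lists of families and cell types, 12 names were higher and 11 lower in the culture than in Thy1- cells (edgeR adjusted p under 0.05). These are a small part of the 85 higher and 79 lower calls. Names outside the lists were called less often than the 18.1% higher and 16.8% lower over all 470 tested names. The higher names were miR-31 with its minor arm miR-31*, miR-224, miR-452, miR-7b, miR-215, miR-153, miR-218, miR-378 with miR-378*, miR-129-5p and miR-805. miR-224 and miR-452, neighbours on the X chromosome, were both scarce: miR-224 stood at 11.9 CPM against 0.785 and 2.24, and miR-452 at 4.89 CPM against 1.18 and 0.611. miR-378 stood at 4496 CPM against 1698 and 1626, and miR-129-5p at 210.4 CPM against 121 and 120.0. In Thy1+ cells miR-378 stood at 7585 and 10062 CPM, above the culture, but in TMM-scaled CPM the order turned, with 9519 in the culture and 5583 and 6161 in Thy1+ cells. miR-129-5p was more abundant in each Thy1+ library than in the culture on both scales, at 1848 and 1409.7 CPM.

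The lower names were miR-672, miR-504, miR-147, miR-139-3p, miR-701, miR-330, miR-138, miR-484, miR-720 and both arms of miR-708. miR-504 fell from 27.5 and 27.1 CPM in Thy1- cells to 1 count in the culture, at 0.196 CPM. miR-138 stood at 38.9 CPM against 627 and 521 (difference -2.83, SE 0.75, edgeR adjusted p = 0.0212). miR-708 stood at 50.7 CPM against 432 and 514, and miR-708* at 6.07 CPM against 57.3 and 62.5, so both arms moved alike.

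The most frequent tag of a miRNA was mostly the same molecule in both populations. Of 222 names with at least 100 counts in each of the 3 libraries, 190 had the same top tag in the culture and both Thy1- libraries, and 204 had the same top tag in the 2 Thy1- libraries.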
